A study of Mus musculus with 7 samples.

Results

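The corticosteroid receptors and a set of genes known to respond to glucocorticoids were followed in synaptoneurosomes from the mouse hippocampus, a fraction enriched in synaptic terminals that have resealed together with a piece of the postsynaptic side. The set was chosen by gene symbol: the glucocorticoid receptor gene Nr3c1, the mineralocorticoid receptor gene Nr3c2, the corticosterone-regenerating enzyme gene Hsd11b1, and the established target genes Fkbp5, Sgk1, Klf9, Tsc22d3 and Per1. These are 8 of the 22248 genes with counts, and all 8 were among the 14654 genes with enough counts to be tested. All mice were wild-type C57Bl/6J females. One group had received AM6545 sub-chronically (4 libraries, replicates B, D, E and F) and the other vehicle (3 libraries, replicates B, D and E). AM6545 blocks the CB1 cannabinoid receptor, the product of Cnr1, and was designed to stay largely outside the brain. Dose, duration, age and how many mice went into a library are not given in the sources used here, so the p-values measure only the spread between these libraries.

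Corticosterone, the main glucocorticoid of rodents, crosses cell membranes and binds receptors that wait in the cytoplasm in a complex with heat shock protein 90 and its co-chaperones. The loaded receptor enters the nucleus and binds DNA at glucocorticoid response elements, which changes transcription of nearby genes. The hippocampus is known for holding both receptors: the mineralocorticoid receptor binds corticosterone with high affinity and is occupied at low hormone levels, and the glucocorticoid receptor is occupied when the hormone rises with stress or at the daily peak.

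No gene of the set passed an adjusted p of 0.05 for AM6545 against vehicle in edgeR's quasi-likelihood test, and 1 of the 14654 genes tested did (0.00682%). DESeq2 and limma-voom called none of the 8 either. Klf9 alone had an unadjusted p under 0.05, with lower levels in AM6545, where 14.6% of all genes tested had one (5.86% with higher and 8.7% with lower levels). For each of the 8 genes the AM6545 libraries overlapped the vehicle libraries, while 13.8% of all genes tested had groups that did not overlap (6.63% higher and 7.19% lower in AM6545). The log2 fold changes were positive for 5 genes (Nr3c1, Nr3c2, Fkbp5, Sgk1 and Tsc22d3) and negative for 3 (Hsd11b1, Klf9 and Per1). Their median was 0.04, beside 0.01 over all genes tested. The median size without regard to sign was 0.157, beside 0.156 over all genes. In tissue fractions of this kind fewer cells of a type and less RNA per cell cannot be told apart.

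The libraries held between 19174649 and 25894733 counts. Vehicle replicate B stood apart: 9.83% of its counts came from mitochondrial genes against 5.07% to 6.66% elsewhere, and on the first principal component (32.2% of the variance) it lay at 43.8 with the other libraries between -22.4 and 12.9. The slope of log2 level on GC content was negative in each AM6545 library (-0.13 to -0.03 per 10 percentage points of GC) and positive in each vehicle library (0.05 to 0.14), so the fold changes of the 8 genes are also given after a correction for GC content and length. That correction left 6.74% of all genes at an unadjusted p under 0.05 (2.25% higher and 4.48% lower in AM6545). Summed markers of CA1 pyramidal cells lay at 637 to 698 CPM (counts scaled to library size with TMM factors) in AM6545 and 757 to 800 in vehicle, without overlap, those of microglia at 1007 to 1097 and 1051 to 1336, and those of interneurons at 916 to 1039.7 and 1034 to 1212. Choroid plexus markers varied most, at 1069.9 to 5237 in AM6545 and 3340 to 5147 in vehicle. Every marker of excitatory neurons, interneurons, astrocytes, oligodendrocytes, microglia, CA1, CA2, CA3 and dentate gyrus was detected in every library. The oligodendrocyte gene Mbp alone averaged 11752 CPM, so the fraction held glial RNA. The part of these differences in the results below was not tested.

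**Figure D1:**
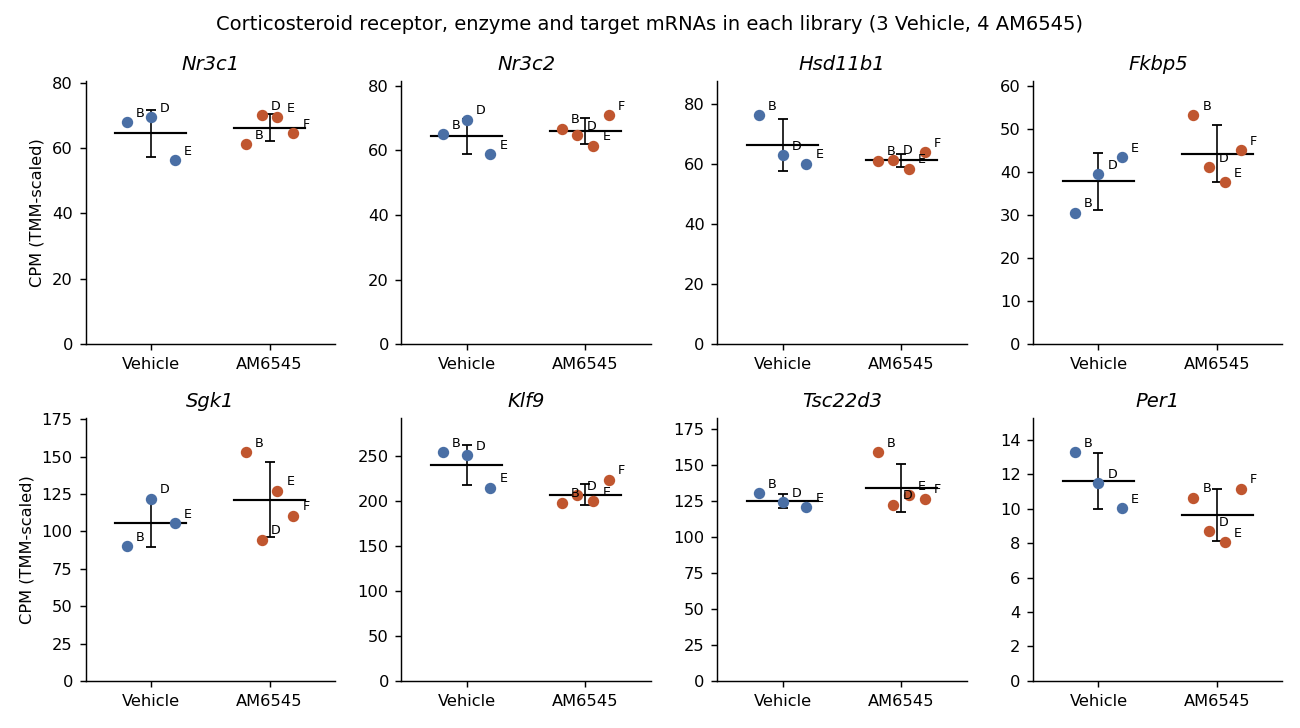
CPM, scaled by TMM factors, of each of the 8 genes in each library, with 3 vehicle libraries in blue and 4 AM6545 libraries in orange, letters naming replicates. Horizontal lines are group means and error bars 1 SD; the groups overlap in all 8 panels, and AM6545 replicate B is the highest point for Fkbp5, Sgk1 and Tsc22d3.

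Nr3c1 (ENSMUSG00000024431.16) encodes the glucocorticoid receptor, a nuclear receptor that acts as a ligand-dependent transcription factor. Its normalised level was 61.3, 70.03, 69.4 and 64.6 CPM in AM6545 replicates B, D, E and F, and 67.9, 69.5 and 56.3 CPM in vehicle replicates B, D and E. The lowest and the second highest library were both from vehicle, and the AM6545 values lay between the lowest vehicle library and just above the highest. The means were 66.3 ± 4.16 CPM (SD, n = 4) and 64.6 ± 7.20 CPM (SD, n = 3). This gave a log2 fold change of 0.04 (SE 0.11, 95% interval -0.19 to 0.27, edgeR adjusted p = 0.886). In linear terms that interval ran from -12.5% to 20.2%, so larger differences in either direction lay outside it. After the GC and length correction the log2 fold change of Nr3c1 was -0.07 (unadjusted p = 0.476).

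Nr3c2 (ENSMUSG00000031618.14, chr8:76899442-77245012, plus strand) encodes the mineralocorticoid receptor. Its levels were 66.7, 64.7, 61.4 and 70.8 CPM in AM6545 replicates B, D, E and F, and 64.9, 69.4 and 58.7 CPM in vehicle replicates B, D and E. These 7 values interleaved, with an AM6545 library highest and a vehicle library lowest. Between groups the log2 fold change was 0.03 (SE 0.10, 95% interval -0.18 to 0.25, edgeR adjusted p = 0.890), and after the GC and length correction it was -0.003 (unadjusted p = 0.978). Of the 6474 exon bases of Nr3c2, 247 are shared with Gm10649, a non-coding RNA gene on the opposite strand that had no row of its own. Reads from Gm10649 and Nr3c2 cannot be told apart there if strand was not used in counting.

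The balance between the receptors is often given as a ratio, since their relative occupancy sets which corticosteroid responses a cell makes. The log2 ratio of Nr3c2 to Nr3c1, from CPM, was 0.12, -0.11, -0.18 and 0.13 in AM6545 replicates B, D, E and F and -0.06, -0.0025 and 0.06 in vehicle replicates B, D and E. The vehicle values lay inside the AM6545 range. The mean log2 ratio was -0.01 ± 0.16 (SD, n = 4) under AM6545 and -0.0025 ± 0.06 (SD, n = 3) under vehicle, a difference of -0.0064 (exact permutation test over 35 splits, two-sided p = 1; the smallest p this design allows is 0.0286). Divided by transcript length, so that genes can be compared, the ratio of Nr3c2 to Nr3c1 was 0.704 ± 0.112 (SD, n = 4) under AM6545 and 0.761 ± 0.0410 (SD, n = 3) under vehicle. Nr3c1 was the higher of the receptors per length in all 7 libraries. Nr3c1-208, a transcript of 1891 bases, took 16.9% to 31.6% of the Nr3c1 transcript counts. Nr3c1-203 and Nr3c1-204 have 6436 and 6327 bases, longer than Nr3c2-204 and Nr3c2-203 with 5916 and 5675. The order per length therefore depends on the counts assigned to Nr3c1-208, and that assignment was not tested.

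Hsd11b1 (ENSMUSG00000016194.15, chr1:193221634-193264075, minus strand) encodes a hydroxysteroid dehydrogenase of the endoplasmic reticulum that turns the inert keto form of the hormone back into corticosterone. Its levels were 61.1, 61.4, 58.4 and 63.9 CPM in AM6545 replicates B, D, E and F, and 76.2, 62.8 and 60.07 CPM in vehicle replicates B, D and E. Vehicle replicate B was the highest and the other vehicle libraries lay within the AM6545 range. AM6545 against vehicle gave a log2 fold change of -0.12 (SE 0.10, 95% interval -0.34 to 0.11, edgeR adjusted p = 0.607), with the same value after the GC and length correction. Without vehicle replicate B, which also stood apart in its mitochondrial share, it was -0.0037.

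The partner genes of this enzyme gave little beyond it. H6pd, which supplies the cofactor that Hsd11b1 uses, had 3.19 ± 0.412 CPM (SD, n = 4) under AM6545 and 3.82 ± 0.258 CPM (SD, n = 3) under vehicle, a log2 fold change of -0.26 (edgeR adjusted p = 0.487). Hsd11b2, which encodes the opposing enzyme that inactivates corticosterone, was at 0 CPM in every AM6545 library and averaged 0.0134 CPM in vehicle, and was not tested. Of the 12 genes listed for corticosteroid metabolism and transport 6 had enough counts. None of the 6 had an unadjusted p under 0.05 in edgeR, and 2 had one in limma-voom, where 24.1% of all genes did. Abcb1a, a drug and steroid efflux pump of the blood-brain barrier, had the smallest p of them, with 0.844 ± 0.224 CPM (SD, n = 4) under AM6545 and 0.552 ± 0.164 CPM (SD, n = 3) under vehicle and an edgeR adjusted p of 0.420.

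Among the targets, Fkbp5 (ENSMUSG00000024222.18, chr17:28399094-28517527, minus strand) encodes a co-chaperone that joins the heat shock protein 90 complex and lowers the hormone affinity of the glucocorticoid receptor. Because the receptor also induces Fkbp5, the gene closes a short negative feedback loop. Its levels were 53.2, 41.1, 37.6 and 45.1 CPM in AM6545 replicates B, D, E and F, and 30.6, 39.5 and 43.4 CPM in vehicle replicates B, D and E. AM6545 replicate B was the highest library and vehicle replicate B the lowest, with the other 5 between 37.6 and 45.1 CPM. The means were 44.3 ± 6.68 CPM (SD, n = 4) and 37.8 ± 6.56 CPM (SD, n = 3). The log2 fold change was 0.23 (SE 0.14, 95% interval -0.08 to 0.54, edgeR adjusted p = 0.468), and 0.18 after the GC and length correction. It was 0.13 without AM6545 replicate B and 0.10 without vehicle replicate B. A window of 300 bases around the annotated start of Fkbp5 (RefSeq, GRCm38.p6) held a single E-box (CACGTG) and no match to the receptor hexamer described under Sgk1.

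The ratio of Fkbp5 to Fkbp4 compares this inhibitory co-chaperone with the relative that replaces it when hormone binds and that carries the receptor towards the nucleus. The log2 ratio was -2.16, -2.27, -2.04 and -2.18 in AM6545 replicates B, D, E and F, and -2.31, -2.17 and -2.48 in vehicle replicates B, D and E. The highest vehicle library exceeded AM6545 replicates D and F, so the groups overlapped. The difference was 0.16 (exact permutation test, two-sided p = 0.171, 0.343 when adjusted over the 2 ratios). Fkbp4 itself had 199 ± 34.4 CPM (SD, n = 4) under AM6545 and 190.1 ± 46.3 CPM (SD, n = 3) under vehicle.

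Sgk1 (ENSMUSG00000019970.16, chr10:21882184-21999903, plus strand) encodes a serine/threonine kinase that regulates ion channels and transporters and is a classical target of both receptors. Its levels were 153, 94.5, 127 and 111 CPM in AM6545 replicates B, D, E and F, and 90.06, 122 and 106 CPM in vehicle replicates B, D and E. Vehicle replicate D exceeded both AM6545 replicates D and F, and AM6545 replicate B was the highest library. For Sgk1 the log2 fold change was 0.20 (SE 0.16, 95% interval -0.15 to 0.54, edgeR adjusted p = 0.563). It was 0.06 without AM6545 replicate B, 0.08 after the GC and length correction and -0.09 under limma-voom with library weights, where its direction turned.

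Sgk1 is annotated with several start sites. The windows around those of the transcripts compared below are shown because the only complete palindromic response element in the 15 windows available for 7 of the 8 genes lies among them. Each window spans 250 bases before to 50 after the start, from RefSeq on GRCm38.p6, plus strand, 5′ to 3′. The motifs were searched on both strands. The receptor hexamer is TGTTCT, and the palindromic response element joins its reverse complement to it across any 3 bases. The E-box is CACGTG. The cyclic AMP element, which had no match in the set, reads TGACGTCA. Capitals mark the matches. The windows start transcripts Sgk1-204 (chr10:21881934-21882233), Sgk1-202 (chr10:21993640-21993939) and Sgk1-201 (chr10:21994416-21994715).
Sgk1-204: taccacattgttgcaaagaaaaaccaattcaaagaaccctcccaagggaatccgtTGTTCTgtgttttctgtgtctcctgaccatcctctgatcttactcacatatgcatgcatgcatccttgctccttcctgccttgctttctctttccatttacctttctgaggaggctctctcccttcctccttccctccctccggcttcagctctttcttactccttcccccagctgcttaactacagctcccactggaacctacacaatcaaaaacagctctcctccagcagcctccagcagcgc
Sgk1-202: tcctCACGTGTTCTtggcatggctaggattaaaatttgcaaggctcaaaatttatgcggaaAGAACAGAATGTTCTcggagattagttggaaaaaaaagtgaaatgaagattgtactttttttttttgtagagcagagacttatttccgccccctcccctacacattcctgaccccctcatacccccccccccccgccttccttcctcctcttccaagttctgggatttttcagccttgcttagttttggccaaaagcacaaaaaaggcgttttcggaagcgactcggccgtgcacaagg
Sgk1-201: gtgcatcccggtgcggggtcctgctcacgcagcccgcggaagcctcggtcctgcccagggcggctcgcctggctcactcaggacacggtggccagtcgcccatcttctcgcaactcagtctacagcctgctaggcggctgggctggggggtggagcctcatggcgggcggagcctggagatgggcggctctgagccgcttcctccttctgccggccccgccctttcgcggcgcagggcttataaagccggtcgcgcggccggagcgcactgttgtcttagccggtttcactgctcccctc
The Sgk1-202 window held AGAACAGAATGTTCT, a full palindrome that begins at position 21993701 of chromosome 10, 965 bases before the start of Sgk1-201. Such a palindrome was present in 3 of the 32851 mouse promoter windows of the same length (0.00913%). The same window held an E-box that overlaps a further hexamer, the Sgk1-204 window held a single hexamer, and the Sgk1-201 window held no match to any motif searched. The hexamer occurred in 19.0% of all windows, the E-box in 7.15% and the cyclic AMP element in 1.79%. A match is a description of the letters and was not tied to binding here.

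The transcripts of these start sites held very unequal shares of the estimated counts. Use of the start sites themselves was not measured. Sgk1-201 took 78.2% to 86.9% of the Sgk1 transcript counts over the 7 libraries, Sgk1-204 took 8.43% to 16.1% and Sgk1-202, whose window holds the palindrome, took 1.86% to 5.68%. The Sgk1-201 share was 83.1% ± 4.04 (SD, n = 4) under AM6545 and 84.6% ± 2.83 (SD, n = 3) under vehicle, with overlapping groups (exact permutation test, p = 0.714, adjusted p = 0.857 over 7 genes). Sgk1-204 had a log2 fold change of 0.42 and Sgk1-202 of -0.0044, with edgeR adjusted p of 0.710 and 0.999 over 33962 transcripts.

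Klf9 (ENSMUSG00000033863.3, chr19:23141226-23168134, plus strand) encodes a Krüppel-like zinc finger transcription factor that glucocorticoids and thyroid hormone induce in neurons. Its levels were 198, 207, 200.1 and 224 CPM in AM6545 replicates B, D, E and F, and 255, 251 and 215 CPM in vehicle replicates B, D and E. All AM6545 libraries lay below vehicle replicates B and D, and AM6545 replicate F lay above vehicle replicate E. The means were 207 ± 11.7 CPM (SD, n = 4) and 240.4 ± 21.8 CPM (SD, n = 3). The log2 fold change was -0.21 (SE 0.10, 95% interval -0.43 to -0.0020), with an unadjusted p of 0.0482 and an adjusted p of 0.339 in edgeR. After the GC and length correction it was -0.34 (unadjusted p = 0.00868, adjusted p = 0.729). Klf9 kept a negative value in each of the 19 alternatives, from -0.38 to -0.17, and its lowest adjusted p among them was 0.0953, without vehicle replicate E. Its unadjusted p was 0.05 or more when any 1 library other than AM6545 replicate F or vehicle replicate E was left out. The CA1, microglia and interneuron markers also had negative median log2 fold changes, with sums that did not overlap for CA1 and overlapped for the others. Medians were negative too for choroid plexus, oligodendrocyte and excitatory neuron markers (-0.25, -0.09 and -0.07). They were positive for astrocyte, endothelial and mural, CA2, CA3 and dentate gyrus markers. The part of the markers in the value for Klf9 was not tested. The window around the annotated start of Klf9 held no match to the motifs searched.

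Tsc22d3 (ENSMUSG00000031431.14, chrX:140539528-140600659, minus strand) encodes the glucocorticoid-induced leucine zipper protein, which dampens inflammatory signalling. Its levels were 159, 122, 129 and 126 CPM in AM6545 replicates B, D, E and F, and 130.3, 124 and 121 CPM in vehicle replicates B, D and E. Apart from AM6545 replicate B, the libraries lay between 121 and 130.3 CPM. For Tsc22d3 the log2 fold change was 0.10 (SE 0.11, 95% interval -0.13 to 0.34, edgeR adjusted p = 0.672), 0.06 after the GC and length correction and 0.0070 without AM6545 replicate B.

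Per1 (ENSMUSG00000020893.18, chr11:69095217-69109960, plus strand) encodes a period protein of the circadian clock that glucocorticoids also induce directly. It was the least abundant gene of the set, with 171 to 330.3 counts per library. Its levels were 10.6, 8.70, 8.04 and 11.2 CPM in AM6545 replicates B, D, E and F, and 13.3, 11.5 and 10.01 CPM in vehicle replicates B, D and E. Vehicle replicates B and D were the highest, and AM6545 replicates B and F exceeded vehicle replicate E. For Per1 the log2 fold change was -0.27 (SE 0.15, 95% interval -0.60 to 0.06, edgeR adjusted p = 0.425). It was -0.18 after the GC and length correction and -0.16 without vehicle replicate B. The window that starts the main transcript Per1-201 (chr11:69098699-69098998, RefSeq, GRCm38.p6, plus strand) is shown for its E-box, the element that clock proteins bind, in capitals.
Per1-201: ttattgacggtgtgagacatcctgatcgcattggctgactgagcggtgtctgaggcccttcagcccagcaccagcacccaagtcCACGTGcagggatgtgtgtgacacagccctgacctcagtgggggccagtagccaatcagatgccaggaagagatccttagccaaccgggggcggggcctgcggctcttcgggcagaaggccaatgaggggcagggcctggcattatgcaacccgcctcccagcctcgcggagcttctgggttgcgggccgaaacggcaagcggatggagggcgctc
This window held a single E-box and no match to the other motifs.

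**Figure D2:**
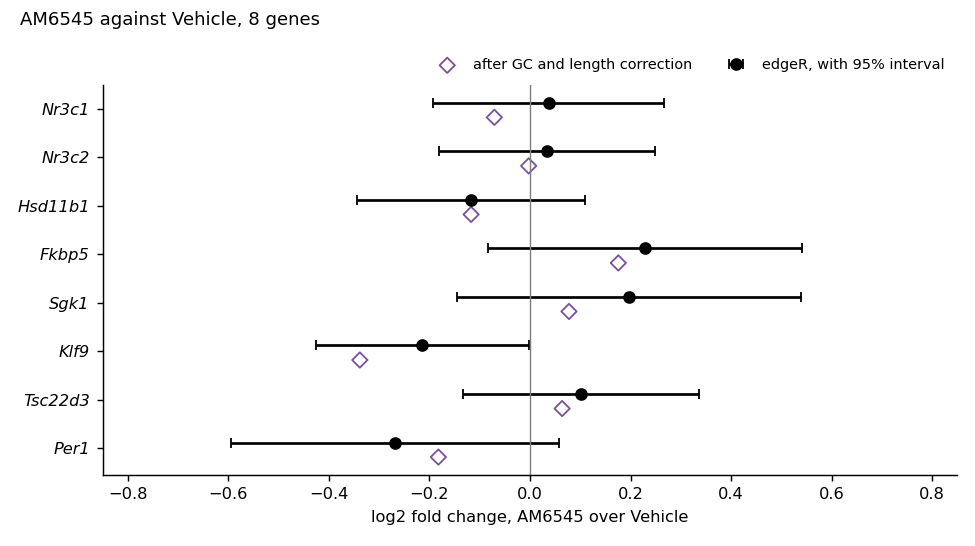
Log2 fold change of AM6545 over vehicle for the 8 genes, with filled points and 95% intervals from edgeR (4 against 3 libraries) and open diamonds after the GC and length correction. Every interval except that of Klf9 includes 0, and the correction moves Nr3c1 and Nr3c2 from slightly above to slightly below 0.

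**Figure D3:**
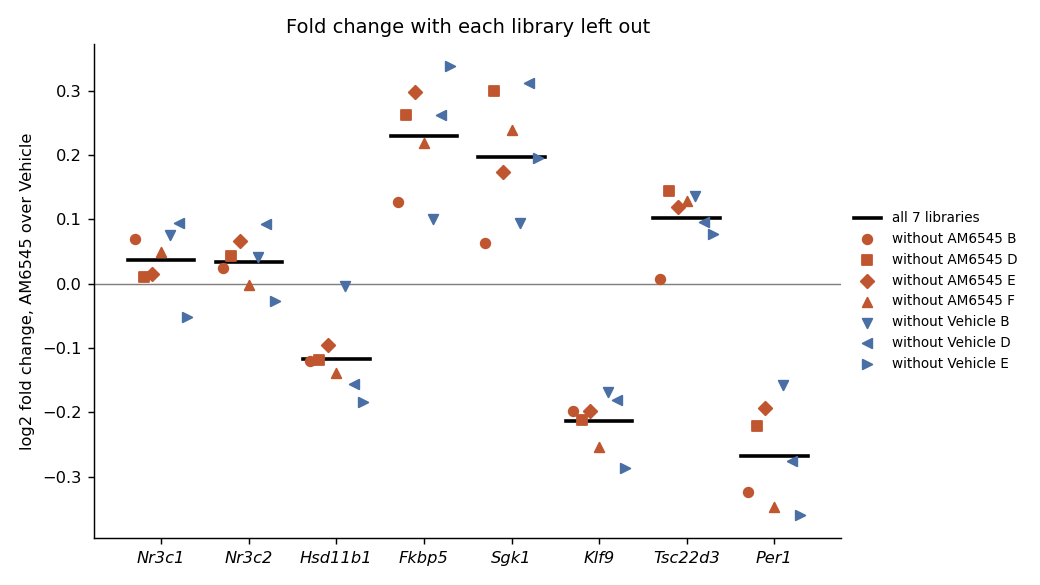
Log2 fold change of AM6545 over vehicle for each gene with all 7 libraries (black line) and with each library left out in turn (orange for AM6545, blue for vehicle). Nr3c1 and Nr3c2 take both signs; Tsc22d3 and Sgk1 come closest to 0 without AM6545 replicate B, and Hsd11b1 without vehicle replicate B.

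Levels were compared between genes as TPM, which divides counts by transcript length. Tsc22d3 was highest at 134 ± 15.5 TPM (SD, n = 7), followed by Klf9 at 98.6 ± 7.84, Hsd11b1 at 88.5 ± 4.64 and Sgk1 at 87.4 ± 19.1. Nr3c1 followed at 32.4 ± 4.93, Nr3c2 at 23.3 ± 2.35, Fkbp5 at 22.5 ± 4.42 and Per1 at 4.4 ± 0.577. Most neighbours in this order kept it in all 7 libraries. Hsd11b1 exceeded Sgk1 in 4 of 7 and Nr3c2 exceeded Fkbp5 in 5 of 7, so those pairs did not differ beyond their spread. Among the 14633 tested genes with a level per length, Tsc22d3 stood at percentile 91.1, Nr3c1 at 68.6, Nr3c2 at 61.7 and Per1 at 28.7. Genes with too few counts to be tested were not in this ranking.

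Transcript shares were examined because the receptor and target genes have alternative first exons. Nr3c1 was split over 3 annotated transcripts by the quantification, and the split was not stable: Nr3c1-203 took 35.9%, 72.6%, 68.3% and 39.8% in AM6545 replicates B, D, E and F, and 40.5%, 29.8% and 74.1% in vehicle replicates B, D and E. Nr3c1-204 had 0 counts in AM6545 replicates D and E and in vehicle replicate E, and 31.5% to 43.7% in the other libraries. The libraries with a high Nr3c1-203 share were those with Nr3c1-204 at 0. Nr3c1-208 took 16.9% to 31.6%. Hsd11b1 was split over 3 transcripts, with Hsd11b1-205 at 39.7% to 58.3%. Nr3c2-204 took 64.7% to 78.2% of Nr3c2, Klf9-201 took 96.9% to 99.3% of Klf9 and Fkbp5-201 took 97.5% to 99.8% of Fkbp5. Tsc22d3-202, which is annotated as non-coding, took 38.8% in AM6545 replicate B and 46.6% to 56.7% in the other libraries, with Tsc22d3-201 taking most of the rest.

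The share of the main transcript overlapped between groups for each of the 7 genes compared, and none passed the test (exact permutation tests, p = 0.229 to 0.857, each 0.857 after adjustment). The smallest p that 35 splits allow is 0.0286, so a change in a single gene could not have passed after adjustment over 7. The lowest p was that of Per1, where Per1-201 took 84.8% ± 7.22 (SD, n = 4) under AM6545 and 91.4% ± 2.11 (SD, n = 3) under vehicle. Of the 21 transcripts of the set with enough counts, none passed an adjusted p of 0.05 in edgeR, where 0.0177% of all 33962 transcripts did. Klf9-201 (log2 fold change -0.22) and Per1-201 (-0.38) had an unadjusted p under 0.05, where 8.39% of all transcripts had one (3.89% higher and 4.5% lower in AM6545). The Per1-201 values, 191 ± 17.6 normalised counts in AM6545 (SD, n = 4) and 249.6 ± 42.4 (SD, n = 3) under vehicle, did not overlap between groups, as for 10.8% of all transcripts (5.2% higher and 5.59% lower in AM6545). The count of 2 was 0 with total counts, with the replicate block, and without AM6545 replicate B, D or E or vehicle replicate B or D.

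**Figure D4:**
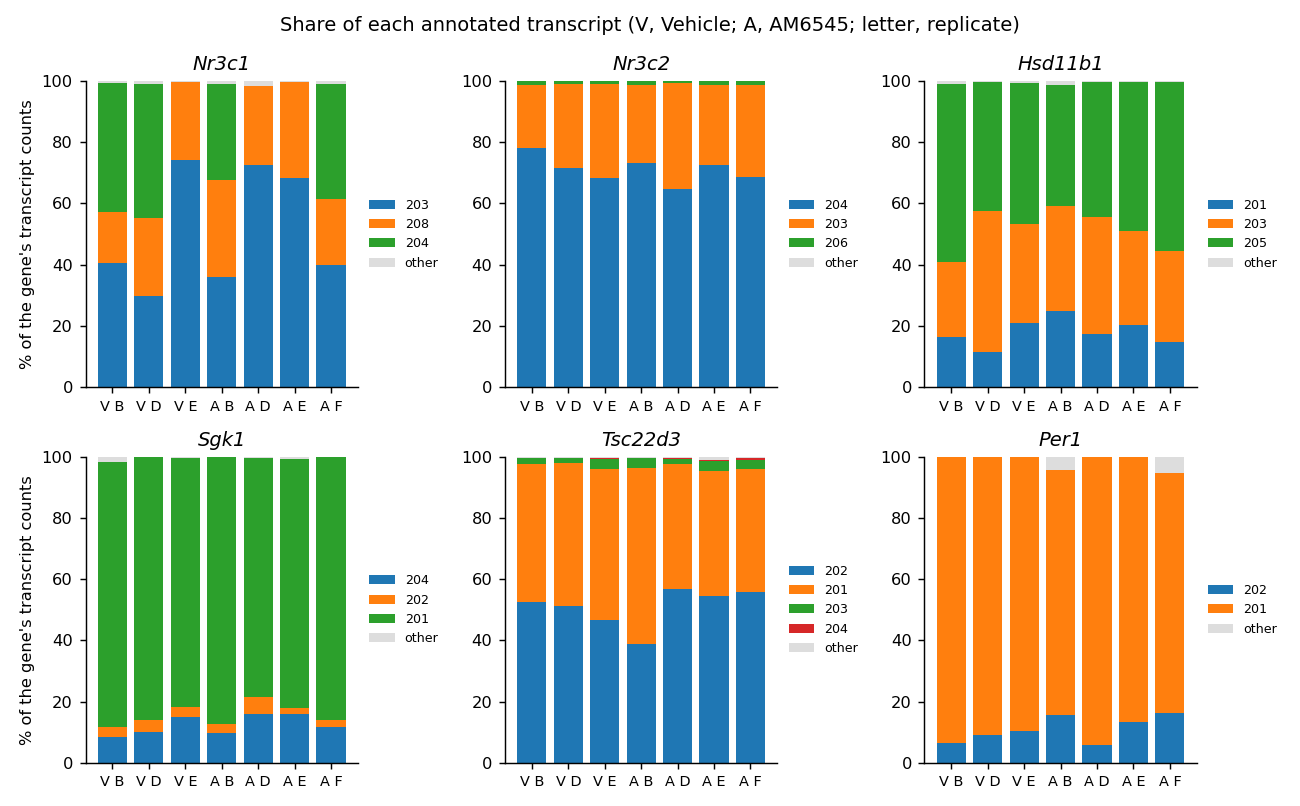
Percent of each gene's transcript counts assigned to each annotated transcript in each library (V, vehicle; A, AM6545; letters name replicates) for 6 genes. Nr3c1-204 is at 0 in 3 libraries where Nr3c1-203 takes 68.3% to 74.1%, and Tsc22d3-202 has its lowest share, 38.8%, in AM6545 replicate B.

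The wider pathway was read from gene lists. The 17 chaperones and co-chaperones that hold the receptors ready for hormone had no member at an unadjusted p under 0.05, where 14.6% of all genes had one. Their log2 fold changes were positive for 14, with a median of 0.09 beside 0.01 over all genes. The count was 5 with limma-voom, 2 without AM6545 replicate E and 7 without vehicle replicate E, all higher. In these settings 24.1%, 11.5% and 25.7% of all genes had such a p in either direction. Those with higher levels were 1741 of 14654, 642 of 14590 and 1902 of 14807 genes. The heat shock protein genes Hsp90aa1 and Hsp90ab1 had log2 fold changes of -0.01 (SE 0.15) and 0.09 (SE 0.21), and Ptges3, the p23 co-chaperone, 0.05 (SE 0.09). Dnaja1, which delivers the receptor to the chaperone cycle, had the smallest p, with 494 ± 55.4 CPM (SD, n = 4) under AM6545 and 406 ± 87.9 CPM (SD, n = 3) under vehicle and an edgeR adjusted p of 0.387; St13 had a log2 fold change of 0.18. Of the receptor cofactors, values are given for 14, with a median log2 fold change of 0.04. Hexim1, which restrains transcription elongation, had -0.22 (SE 0.12) and Smarca2, a chromatin remodelling ATPase, had 0.15 (SE 0.11). After the GC and length correction Hexim1 had -0.35 (edgeR unadjusted p = 0.0298). With that correction 1 of the 14 was lower at an unadjusted p under 0.05, where 4.48% of all genes were.

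Other genes known to be induced by glucocorticoids had negative log2 fold changes in 21 of 29 cases. Of 30 listed, 29 were tested: 6 had an unadjusted p under 0.05 and lower levels (Cdkn1a, Mt1, Mt2, Cebpd, Cebpb and Glul), where 8.7% of all genes tested did, none had higher levels, and the median log2 fold change was -0.17. None of them passed an adjusted p of 0.05 in edgeR. After the GC and length correction 3 (Glul, Cebpd and Sdc4) were lower at an unadjusted p under 0.05, where 4.48% of all genes were, and the median was -0.10. In limma-voom 10 were lower and 2 higher at such a p, where 24.1% of all genes had one in either direction (1786 of 14654 lower and 1741 higher). Markers of interneurons (3 of 8 lower at an unadjusted p under 0.05, median -0.30), microglia (6 of 10, median -0.33) and CA1 cells (2 of 6, median -0.24) were also lower. Choroid plexus markers had a median of -0.25, with 0 of 9 at such a p. The part of the markers in this list was not tested. Mt1, a metallothionein that binds zinc, was 323, 225, 196 and 229 CPM in AM6545 replicates B, D, E and F, and 397, 305 and 385 CPM in vehicle replicates B, D and E. AM6545 replicate B lay above vehicle replicate D. The log2 fold change of Mt1 was -0.58 (SE 0.16, edgeR adjusted p = 0.211), and -0.06 after the correction; DESeq2 called it. Its neighbour and paralogue Mt2 had -0.61 (SE 0.19), and -0.10 after the correction.

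Glul, the astrocyte enzyme that makes glutamine, was 229, 248, 198 and 225 CPM in AM6545 replicates B, D, E and F and 308, 258 and 282 CPM in vehicle replicates B, D and E, without overlap. Its log2 fold change was -0.33 (SE 0.10, edgeR adjusted p = 0.235) and -0.31 after the correction. Astrocyte marker sums overlapped, at 4240 to 5253 CPM in AM6545 and 4408 to 5686 CPM in vehicle, and their part in the value for Glul was not tested. Cebpb, a transcription factor of acute-phase and metabolic genes, was 18.9 ± 2.80 CPM (SD, n = 4) under AM6545 and 29.2 ± 2.62 CPM (SD, n = 3) under vehicle, without overlap. The log2 fold change of Cebpb was -0.63 (SE 0.13, edgeR adjusted p = 0.199) and -0.25 after the correction; DESeq2 and limma-voom each called it at an adjusted p of 0.05. Cdkn1a, a cell cycle inhibitor, had a log2 fold change of -0.42 (SE 0.16). Pdk4, which slows entry of pyruvate into mitochondria, had 0.29 (SE 0.15). The well-known target genes Dusp1, Zbtb16, Ddit4 and Errfi1 had log2 fold changes of 0.10, 0.04, -0.01 and 0.16, all with unadjusted p above 0.05.

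Clock genes were listed because Per1 belongs to both systems. Of 19, Nr1d2, which encodes a haem-binding repressor of the clock, had an unadjusted p under 0.05 and higher levels, where 5.86% of all genes did. Its levels were 42.2, 53.05, 58.5 and 49.3 CPM in AM6545 replicates B, D, E and F and 33.1, 39.6 and 37.9 CPM in vehicle replicates B, D and E. The groups did not overlap, and the log2 fold change was 0.46 (SE 0.12, edgeR adjusted p = 0.199), or 0.28 after the correction. DESeq2, which had 13.4% of its gene calls false on simulated counts, called Nr1d2 at an adjusted p of 0.05. The other period genes gave 0.18 (SE 0.11) for Per2 and -0.21 (SE 0.14) for Per3, and neither had an unadjusted p under 0.05. After the correction Nr1d2, Ciart and Per2 (0.26, unadjusted p = 0.0304) had one, 3 of 19 where 2.25% of all genes were higher. The count was 4 with limma-voom and 4 without vehicle replicate E. In those settings 24.1% and 25.7% of all genes had an unadjusted p under 0.05 in either direction. Of 14654 genes 1741 were higher and 1786 lower with limma-voom, and of 14807 genes 1902 and 1908 without vehicle replicate E. Nr1d1, Dbp, Arntl and Clock had log2 fold changes of 0.08, -0.10, 0.12 and 0.06, and Cry1 had 0.36 (SE 0.17).

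Of 16 relatives of the target genes, Klf13, Tsc22d4 and Fkbp2 had an unadjusted p under 0.05, each lower in AM6545, where 8.7% of all genes were. These 3 also had no overlap between groups, as for 7.19% of all genes in that direction. The log2 fold change was positive for 9 of the 16 relatives, with a median of 0.03. After the GC and length correction 2 were lower and 1 higher at an unadjusted p under 0.05, where 4.48% and 2.25% of all genes were. Klf13, a Krüppel-like factor close to Klf9, was 126, 137, 122 and 134 CPM in AM6545 replicates B, D, E and F and 205, 196 and 159 CPM in vehicle replicates B, D and E. No AM6545 library reached the vehicle range, and the log2 fold change of Klf13 was -0.53 (SE 0.11, edgeR adjusted p = 0.199), or -0.43 after the correction; DESeq2 and limma-voom called it. Tsc22d4, a relative of Tsc22d3, was 112 ± 6.03 CPM (SD, n = 4) under AM6545 and 150.1 ± 21.1 CPM (SD, n = 3) under vehicle, without overlap. Its log2 fold change was -0.43 (edgeR adjusted p = 0.199), or -0.24 after the correction. DESeq2 called Tsc22d4. Klf15, Sgk3 and Tsc22d1 had log2 fold changes of 0.03, 0.22 and -0.06.

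The remaining lists held no gene at an unadjusted p under 0.05 in edgeR. In limma-voom 2 of the stress peptide genes and 3 of the immediate early genes had one, where 24.1% of all genes did. The 11 tested genes of corticotropin-releasing hormone and stress peptide signalling gave a median of -0.09 for the log2 fold change, and Crhr1, the main receptor for that hormone, had -0.18 (SE 0.13) and its binding protein Crhbp -0.09 (SE 0.12). Avpr1b and Avp, of the vasopressin system, were at or below 1.91 CPM on average in each group. The 5 other steroid receptors tested had a median of -0.06, with Pgr at -0.10 and Esr1 at 0.16. The 13 immediate early genes had a median of -0.00020, with Arc at -0.10 (SE 0.19), Btg2 at 0.20 (SE 0.12) and Fosb at -0.52 (SE 0.33). Fos, which marks recent neuronal activity, averaged 44.1 ± 15.5 CPM (SD, n = 4) under AM6545 and 44.01 ± 8.0 CPM (SD, n = 3) under vehicle. The AM6545 libraries spread from 26.7 CPM in replicate D to 63.2 CPM in replicate B, and the vehicle libraries from 38.7 to 53.2 CPM.

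**Figure D5:**
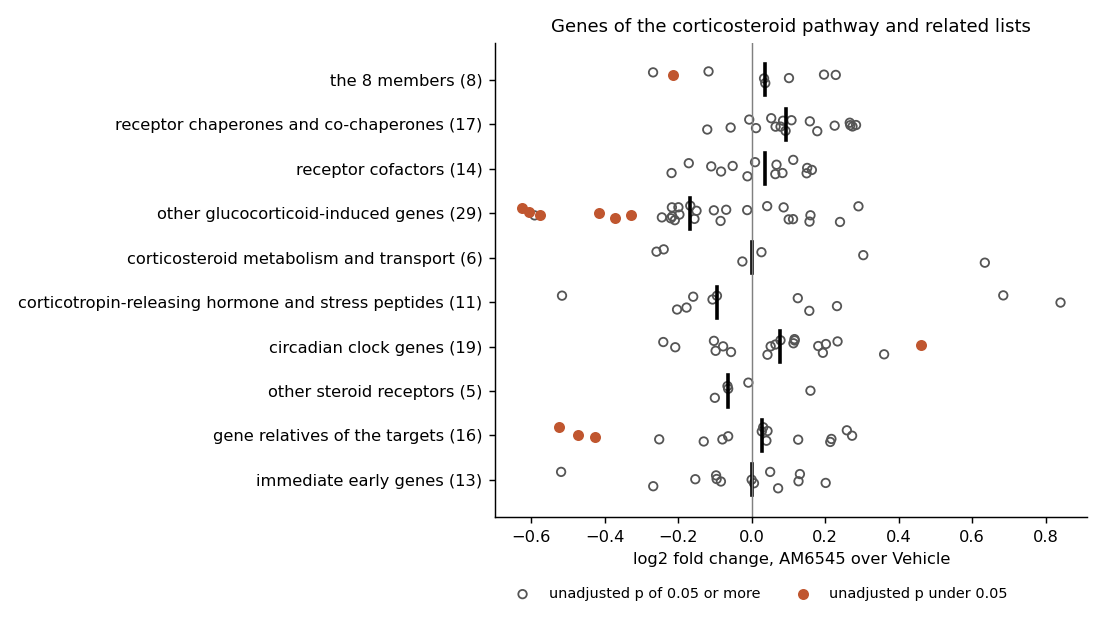
Log2 fold change of AM6545 over vehicle (4 against 3 libraries) for each tested gene of the set and of 9 related lists, with filled points for an unadjusted p under 0.05 and black bars for list medians. The other glucocorticoid-induced genes have 6 filled points, all below 0, and a median of -0.17.

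Across the 7 libraries, the genes whose log2 CPM followed each gene most closely were searched among 9425 genes. These correlations are descriptions over few libraries that share depth and treatment. For Nr3c1 they were Zbtb22 and Ei24 (Pearson r = 0.971 for each), and for Nr3c2 Lurap1l (0.952) and Rprd2 (0.949). Hsd11b1 was followed by Ramp2 (0.995) and Sncb (0.993), Fkbp5 by Cog5 (0.996), and Sgk1 by Gtf3c4 (0.962) and Ablim1 (0.954). Klf9 was followed by Emg1 (0.987) and Timm22 (0.984), Tsc22d3 by Mink1 (0.928) and Akap6 (0.924), and Per1 by Pradc1 and Magoh (0.982 for each). No gene of the set was among the 2 closest to another. Of the 28 pairs within the set, Hsd11b1 and Per1 had the smallest p (r = 0.810, exact permutation p = 0.00992, adjusted 0.172 over the 28 pairs; Spearman rho = 0.857, exact permutation p = 0.0238, adjusted 0.448). Without the 2 libraries farthest from the median of Hsd11b1, AM6545 replicate E and vehicle replicate B, r was 0.560.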

How the data were processed

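Hippocampal synaptoneurosome RNA was sequenced in 7 libraries, prepared by the SMARTer Ultra Low Input method per the labels' protocols. The authors deposited estimated counts per gene (22248) and per transcript (102392); Salmon 1.5.2 and mm10 are named in the submitters' processing notes, without a role. The annotation release, strand setting and filters are not given in the sources used here. Symbols, lengths and coordinates came from GENCODE M21 on GRCm38 (22148 gene identifiers matched, 22135 of them at a higher version in the table, so lengths may differ from those used in counting). Counts were rounded, filtered by expression, scaled by TMM and tested with edgeR 4.0.16 (robust quasi-likelihood, treatment as the only term, Benjamini-Hochberg over all 14654 genes, or the 33962 transcripts that passed the same expression filter). DESeq2 1.42.0, limma 3.58.1 (voom with library weights), other scalings and filters, a replicate block, a GC and length correction (lowess span 0.3) and leaving out each library were alternatives. Transcripts were also tested with total counts, DESeq2, a mean of at least 10 counts, the replicate block and each library left out. TPM were computed from the counts and transcript lengths. Ratios and shares were tested by exact permutation, two-sided. Overlap with neighbouring genes was examined for the 8 genes only.

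The 8 genes and the lists were chosen with earlier results of these data known. All 8 genes are named; of each list, a fixed set of well-known genes and the 2 with the smallest p are named, and for each of the 8 the 2 closest genes by Pearson r (mean of at least 10 CPM). Cebpd, Fkbp2, Ciart and Sdc4 were named after their values were seen. The values of 1 listed cofactor gene and 1 correlated gene are not reported here. On simulated counts for 14589 genes, edgeR recovered 87.5% of genes changed by 1 log2 unit and 97.1% of those changed by 2. Of its calls 6.57% were false, and its 95% intervals held the true value for 95.2% of genes. For 31751 transcripts it recovered 9.57% and 39.5%, with 4.44% of calls false. DESeq2 had 13.4% of calls false for genes and 57.4% for transcripts, and limma-voom 6.57% and 6.82%. Changes as small as those of the 8 genes were not simulated.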

Additional observations from a re-analysis of the deposited data

Results flagged for a closer look

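In groups of 4 libraries, 60 values (levels, ratios and transcript shares) were examined for a single library far from the other 3 of its group, and 4 stood out where chance gives about 3. The level of Cdkn1a was 10.3 CPM in AM6545 replicate B and 6.79 to 7.33 CPM in the other AM6545 libraries, with vehicle at 10.04 to 11.6 CPM. The level of Mt2 was 46.1 CPM in AM6545 replicate B and 26.6 to 28.9 CPM in the others, with vehicle at 39.95 to 53.9 CPM. Btg2 was at 37.9 CPM in AM6545 replicate D and 45.9 to 46.3 CPM in the others, with vehicle at 32.4 to 43.4 CPM. The share of Tsc22d3-202 among Tsc22d3 transcripts was 38.8% in AM6545 replicate B and 54.6% to 56.7% in the others, with vehicle at 46.6% to 52.7%. No level of the 8 genes stood out by this measure.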

How the results depend on the processing

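The number of genes past an adjusted p of 0.05 depended on the tool: 1 in edgeR, 247 in DESeq2, 118 in limma-voom, 2 with a mean of at least 50 counts, 2 without robust estimation, 0 after the GC and length correction, and 0 to 944 when 1 library was left out, with 944 without vehicle replicate E and 0 without AM6545 replicate E or vehicle replicate B. For transcripts it was 6 in edgeR, 431 in DESeq2, 4 with a mean of at least 10 counts, 0 with the replicate block and 1 to 14 when 1 library was left out (14 without vehicle replicate E), and no transcript of the 8 genes was among them. At an unadjusted p under 0.05, 859 genes were higher and 1275 lower, and with total-count scaling 1104 and 943. None of the 8 genes passed an adjusted p of 0.05 in any of the 19 alternatives. The count at an unadjusted p under 0.05, 1 of 8, was 0 with total counts, without a low-count filter and without robust estimation, 2 with limma-voom (Klf9, Per1), and 0 to 3 when 1 library was left out, with 3 (Fkbp5, Klf9, Per1) without vehicle replicate E. Over all genes 24.1% had such a p with limma-voom and 25.7% without vehicle replicate E. Of the related genes, Cebpb, Cry1, Klf13 and Tsc22d4 passed an adjusted p of 0.05 in edgeR without vehicle replicate E. The log2 ratio of Nr3c2 to Nr3c1 differed by 0.061 after the GC and length correction and by -0.054 to 0.050 over left-out libraries, and the ratio of Fkbp5 to Fkbp4 by 0.076 to 0.23.

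Directions turned for values near 0 and for some larger ones, and the cause was not tested. The larger ones in the main fit were 0.22 for Sgk3, 0.20 for Sgk1, 0.18 for St13, 0.157 for Errfi1 and -0.52 for Avp. The median size over all genes tested was 0.156. After the GC and length correction the log2 fold change was -0.071 for Nr3c1, -0.0026 for Nr3c2, 0.12 for Ddit4, -0.074 for Ptges3, 0.10 for Dbp, -0.023 for Sgk3, -0.025 for St13 and 0.083 for Avp. Under limma-voom it was -0.032 for Nr3c2, -0.094 for Sgk1, -0.11 for Dusp1, -0.038 for Errfi1, 0.059 for Hsp90aa1, 0.038 for Crhbp, -0.032 for Klf15 and -0.031 for Sgk3. With total counts it was 0.018 for Ddit4, 0.029 for Hsp90aa1 and 0.024 for Fos, and without a low-count filter 0.00088 for Hsp90aa1 and 0.0068 for Fos. Over left-out libraries it ranged from -0.052 to 0.094 for Nr3c1, -0.028 to 0.092 for Nr3c2, -0.013 to 0.20 for Dusp1, -0.042 to 0.11 for Zbtb16, -0.18 to 0.082 for Ddit4, -0.070 to 0.27 for Fkbp4, -0.095 to 0.13 for Hsp90aa1, -0.053 to 0.35 for Hsp90ab1, -0.21 to 0.019 for Crhbp, -0.060 to 0.27 for Arntl, -0.036 to 0.15 for Clock, -0.017 to 0.10 for Klf15, -0.23 to 0.18 for Fos and -0.23 to 0.047 for Arc. The share difference in percentage points ranged from -3.14 to 19 for Nr3c1-203, -5.46 to 2.48 for Hsd11b1-205, -3.11 to 0.145 for Sgk1-201 and -0.558 to 5.47 for Tsc22d3-202.

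Replicate letters are shared between groups, but libraries with the same letter did not deviate together (correlations -0.225, -0.11 and -0.14 for B, D and E; 0 of 3 correlated best with their own letter), so the letters were not used as pairs. Whether they mark a shared animal or day is not given in the sources used here. With the replicate block 1 gene passed an adjusted p of 0.05 and 0 of the 8 had an unadjusted p under 0.05, the ratio of Nr3c2 to Nr3c1 differed by -0.054, the ratio of Fkbp5 to Fkbp4 by 0.16, and the share of Tsc22d3-202 by -0.216 percentage points. With the replicate block and the GC and length correction the log2 fold change was -0.063 for Nr3c1, -0.044 for Nr3c2, 0.10 for Ddit4, -0.0061 for Errfi1, -0.00072 for Hsp90ab1, -0.069 for Ptges3, 0.050 for Dbp, -0.046 for St13 and 0.31 for Avp.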

Other observations

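The highest and lowest libraries were counted for the set and for related lists. AM6545 replicate B was the highest of the 7 libraries for 3 of the 8 genes (Fkbp5, Sgk1 and Tsc22d3), for 9 of 29 other glucocorticoid-induced genes, for 8 of 17 receptor chaperones and co-chaperones and for 7 of 13 immediate early genes, beside 2550 of the 14654 genes tested (17.4%). It was the highest for 3 of 19 clock genes, 2 of 16 relatives of the targets, 0 of 11 stress peptide genes and 0 of 5 other steroid receptors. AM6545 replicate D was the lowest for 9 of 13 immediate early genes, beside 932 of the 14654 genes tested. Vehicle replicate E was the highest for 7 of 17 chaperones and co-chaperones, beside 12.8% of all genes. Vehicle replicate B was the highest for 3 of the 8 (Hsd11b1, Klf9 and Per1) and the lowest for 2 (Fkbp5 and Sgk1), and it was the lowest for 8 of 17 chaperones and co-chaperones. Over all genes vehicle replicate B was the highest for 4015 and the lowest for 4144 of 14654.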
